A study of Arabidopsis thaliana with 12 samples.

Results

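The 52 genes described here run the division cycle of the plant cell: cyclins of the A, B and D classes, the cyclin-dependent kinases (CDKs) they activate, CDK inhibitors and the WEE1 kinase, the E2F factors with the retinoblastoma-related protein, DNA replication proteins, and the cytokinesis protein KNOLLE. They were chosen by locus from a list of known cell cycle genes, and all 52 were present in each of the 4 deposited tables, out of 24912 genes in the series. Of the 208 fold changes against control (52 genes in 4 comparisons), 2 passed the test. That was at most 1 member in a comparison (1.92%), beside 4.32% to 11.2% of all genes, so members passed less often than all genes. The D-type cyclin CYCD3;1 fell in root with PS-SO3H, and the CDK inhibitor SMR1 rose in leaf with PS-NH2.

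RNA was sequenced from root and leaf of wild-type Arabidopsis thaliana of accession Col, in seedlings aged 10 days on MS medium at reduced strength. The root groups were PS-NH2, PS-SO3H and control, and the leaf groups were PS-NH2, PS-SO3H and control, with 2 libraries in each of the 6 groups and 12 in all. PS-NH2 and PS-SO3H are polystyrene nanoplastic particles carrying amino or sulfonic acid groups, each given at 50 ug/ml, and control seedlings grew without particles. The labels do not say whether libraries came from separate plates or pools of plants, so the p-values measure the spread between these libraries, which may be technical.

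In plants, D cyclins bound to CDKA drive cells out of G1 by phosphorylating the retinoblastoma-related protein, which frees E2F factors to switch on replication genes. A and B cyclins with B-type CDKs then carry the cell through G2 and mitosis, where many of the genes share a promoter element named MSA that MYB3R factors recognise. Inhibitors of the KRP and SIAMESE families hold CDKs back, and in Arabidopsis they favour the endocycle, in which leaf and root cells replicate DNA without dividing. Division itself is largely confined to meristems and young organs, so in whole leaves and roots these transcripts come from a minority of cells. In bulk tissue, fewer dividing cells and less RNA per cell cannot be told apart, here and in every comparison that follows.

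Each deposited table sets 1 particle against control in 1 tissue and gives a fitted level for each of both groups, a log2 fold change of treated over control, a p-value and an adjusted p. All levels, and all fold changes and adjusted p-values set against control, were taken from the authors' deposited tables. A level is on the scale of reads divided by a size factor and is not divided by gene length, so levels are compared here within a gene. The tables hold no value per library, so each group has 1 value and depth per library is unknown. The standard error (SE) and the 95% interval of a fold change were recovered from the fold change and its p-value. A call means an adjusted p below 0.05 in the deposited table. The tissues matched their labels. In control seedlings the Rubisco small subunit gene RBCS1A had a level of 3361 in root and 392726 in leaf, and the root gene PYK10 had 317901 in root and 13616 in leaf.

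The promoters of 2 groups of members are shown because they carry the letters through which the cycle is known to be wired. Windows of 250 bases before the annotated start were read from the TAIR10.1 genome with its RefSeq annotation, matched by locus. The words TTTCCCGC, TTTCGCGC, TTTGCCGC and TTTGGCGC, which spell the E2F consensus, were searched on both strands. They occurred in 7 of 52 member windows (13.5%) and in 387 of 27443 windows of all genes (1.41%). The members were MCM2, MCM3, MCM4, MCM5, MCM6, RBR1 and CYCD3;3. The words TCCAACGG, TCTAACGG, CCCAACGG and CCTAACGG, which hold the core of the MSA element, were also searched on both strands. They occurred in 6 member windows (11.5%) and in 491 windows of all genes (1.79%). All 6 members were B cyclins: CYCB1;1, CYCB1;2, CYCB1;3, CYCB2;1, CYCB2;2 and CYCB2;3. No window held words of both kinds, and the windows of CYCD3;1 and SMR1 held neither. A word is a match of letters and not a measured binding site.

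The stretch around each E2F word in the 5 helicase subunit genes reads as follows on the strand of the gene, with the word in capitals. MCM2 is at chr1:16970185-16970213 (plus strand), MCM3 at chr5:18773854-18773891 (minus), MCM4 at chr2:7130742-7130779 (minus), MCM5 at chr2:3527501-3527534 (minus) and MCM6 at chr5:18010691-18010728 (minus).
MCM2: aaattggcgccaataTTTCCCGCctaatc
MCM3: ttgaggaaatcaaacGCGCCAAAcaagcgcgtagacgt
MCM4: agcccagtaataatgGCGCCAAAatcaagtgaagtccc
MCM5: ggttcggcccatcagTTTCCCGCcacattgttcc
MCM6: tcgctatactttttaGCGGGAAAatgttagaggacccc
Counted from the start (position -1 is the base before it), the word began at -14 in MCM2, -19 in MCM5, -35 in MCM4, -46 in MCM6 and -170 in MCM3.

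The stretch around the MSA words in 4 B cyclin genes reads as follows, again on the strand of the gene with the words in capitals. CYCB1;1 is at chr4:17624347-17624384 (minus), CYCB1;2 at chr5:1861704-1861864 (minus), CYCB1;3 at chr3:3627293-3627352 (minus) and CYCB2;1 at chr2:7663952-7663989 (plus).
CYCB1;1: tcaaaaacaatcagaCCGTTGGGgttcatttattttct
CYCB1;2: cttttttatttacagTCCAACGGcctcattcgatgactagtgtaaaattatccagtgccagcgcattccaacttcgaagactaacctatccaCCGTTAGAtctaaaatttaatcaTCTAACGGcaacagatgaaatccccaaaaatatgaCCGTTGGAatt
CYCB1;3: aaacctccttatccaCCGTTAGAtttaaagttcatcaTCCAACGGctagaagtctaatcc
CYCB2;1: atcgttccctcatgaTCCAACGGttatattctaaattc
The B1 cyclin with the longest stretch held 4 such words, 2 in each orientation. CYCB1;3 held 2 and the other windows shown held 1 each.

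**Figure D1:**
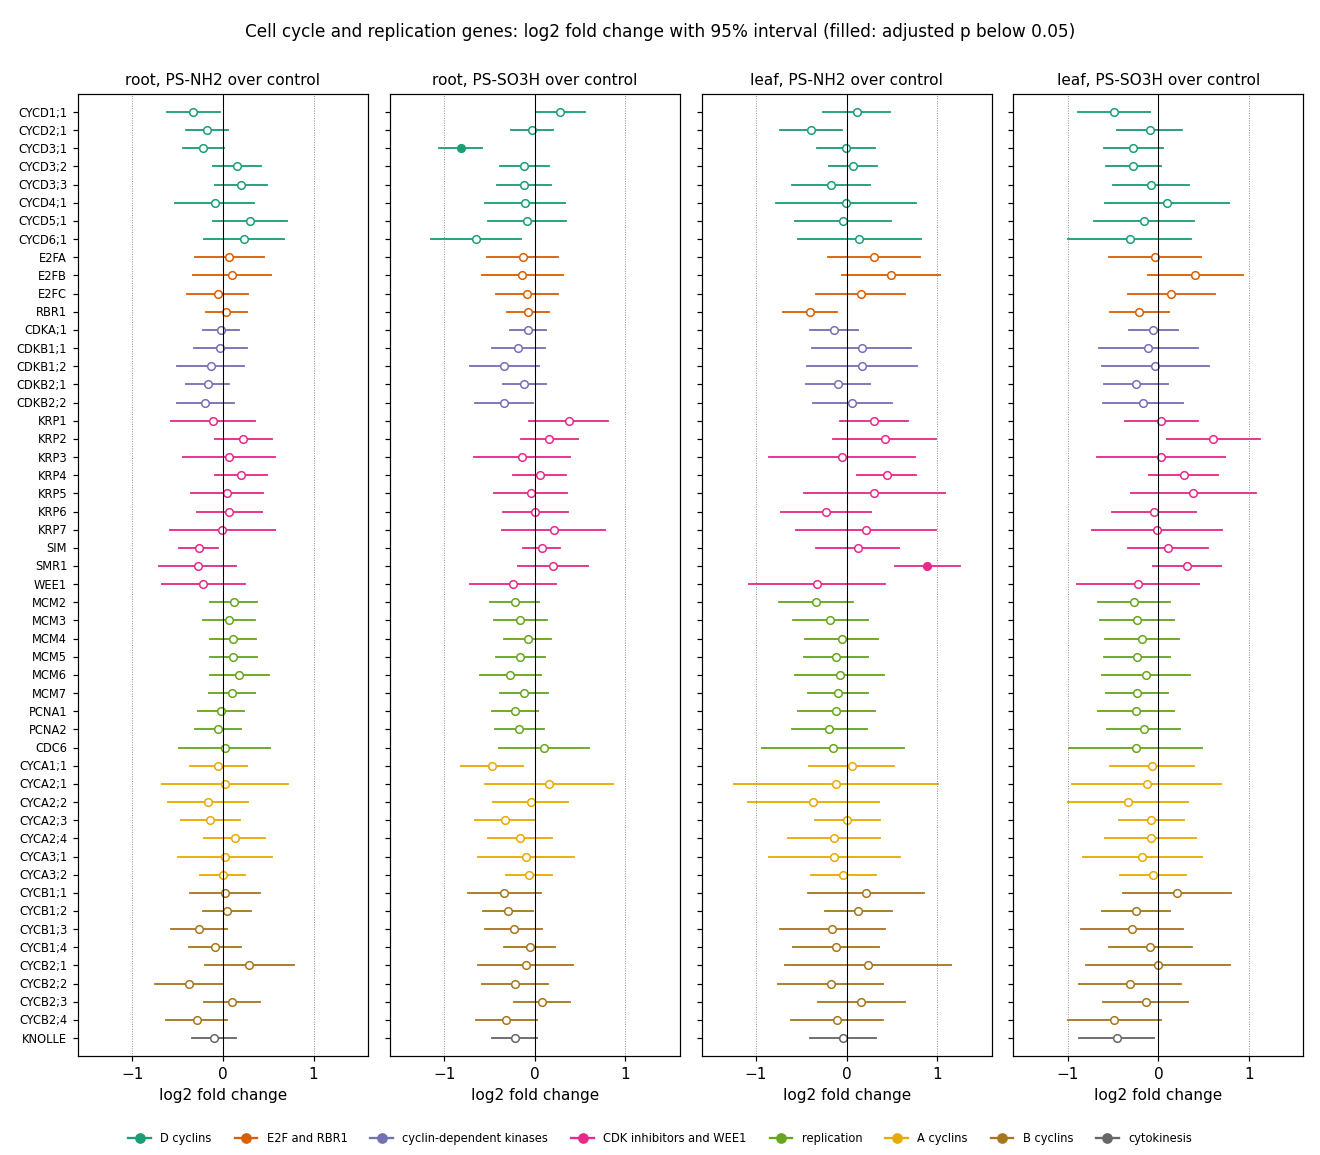
Log2 fold change of treated over control (x axis) for each of the 52 genes (rows, coloured by role) in root with PS-NH2, root with PS-SO3H, leaf with PS-NH2 and leaf with PS-SO3H. Points are the authors' fold changes, bars are 95% intervals from the recovered SE, and filled points passed the adjusted p limit of 0.05: CYCD3;1 at -0.82 in root with PS-SO3H and SMR1 at 0.89 in leaf with PS-NH2.

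Few of the cycle genes were called against control, which does not show that the set was unchanged. With PS-NH2 in root, 0 of 52 members were called, beside 4.32% of all genes. With PS-SO3H in root, 1 member was called (CYCD3;1, lower), beside 4.84% of all genes. With PS-NH2 in leaf, 1 member was called (SMR1, higher), beside 11.2% of all genes. With PS-SO3H in leaf, 0 members were called, beside 4.46% of all genes. At an unadjusted p below 0.05, the members numbered 3 (0 higher and 3 lower), 7 (1 higher and 6 lower), 4 (2 higher and 2 lower) and 3 (1 higher and 2 lower) in that order of comparisons, beside 10.8%, 11.6%, 19.5% and 12.4% of all genes. In root with PS-SO3H the share of members at that limit was 13.5%, above that of all genes. There 6 of 52 members were lower, beside 1189 of 23818 genes, and 1 was higher, beside 1583. In the other comparisons the share of members was below that of all genes.

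The signs were uneven with PS-SO3H. In the authors' deposited table for root with PS-SO3H, 41 of 52 members had a fold change below 0 (78.8%, beside 50.8% of all genes), with a median of -0.12 on the log2 scale. In leaf with PS-SO3H it was again 41 of 52 (78.8%, beside 50.1% of all genes), with a median of -0.14. With PS-NH2 the members were below 0 in 26 of 52 cases in root (median 0.01) and in 30 of 52 in leaf (median -0.04). The median of all genes was within 0.01 of 0 in all 4 comparisons. The interval lay within a log2 change of 1 either way for 52 members in root with PS-NH2 and 50 in root with PS-SO3H. In leaf it did so for 45 with PS-NH2 and 50 with PS-SO3H. Of all genes, 93.1%, 92.15%, 70.5% and 85.5% had such an interval, in that order. The largest SE of any gene was 0.37, 0.38, 0.57 and 0.43 in that order, although levels went down to 0.24. SEs this small at such levels, with 2 libraries a group, are not those of a fit that leaves fold changes as observed. The fold changes and fitted levels are therefore read as pulled toward 0. The amount is not given and may differ between tables. These intervals thus do not show that effects were small, and differences between tables rest on the same values. Genes of one cycle phase share regulators and are not independent of each other, so these counts of signs are descriptions.

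D cyclins couple growth signals to the start of the cycle. CYCD3;1 (AT4G34160), a D3 cyclin that responds to cytokinin and sugar and keeps leaf cells in division, had a fitted level of 1149 with PS-NH2 and 737 with PS-SO3H in root, against 1334 and 1298 in the root control of the same tables. In leaf its level was 637 with PS-NH2 and 530 with PS-SO3H, against 638 and 642 in leaf control. The low value thus stood in root with PS-SO3H. There the gene fell by 0.82 on the log2 scale (SE 0.12, interval -1.05 to -0.58, adjusted p = 2.68e-09 by the authors' DESeq2 method). The fold changes that did not pass were -0.22 in root with PS-NH2 (interval -0.44 to 0.01, adjusted p = 0.522), 0.00 in leaf with PS-NH2 (interval -0.32 to 0.32) and -0.28 in leaf with PS-SO3H (interval -0.60 to 0.05, adjusted p = 0.571).

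The other D3 cyclins did not pass in any table. CYCD3;2 (AT5G67260) had 681 with PS-NH2 and 547 with PS-SO3H in root, against 610.2 and 594 in control, and 1292 with PS-NH2 and 1019 with PS-SO3H in leaf, against 1230 and 1237 in control. CYCD3;3 (AT3G50070) had 581 with PS-NH2 and 450.1 with PS-SO3H in root, against 505 and 490.2 in control, and 222 with PS-NH2 and 239 with PS-SO3H in leaf, against 251 and 253 in control. In root with PS-SO3H they had -0.12 each, with intervals of -0.39 to 0.15 and -0.42 to 0.17. CYCD6;1 (AT4G03270), which in the root acts in the formative divisions that lay down cortex and endodermis, had the next lowest value there. Its level was 84.6 with PS-SO3H against 133 in root control (log2 -0.65, SE 0.25, adjusted p = 0.146), and 166 with PS-NH2 against 141 in root control (log2 0.23). In leaf it had levels of 74.6 with PS-NH2 against 67.7, and 53.1 with PS-SO3H against 66.3, in leaf control.

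CYCD1;1 (AT1G70210), another G1 cyclin, had opposite signs with the particles in both tissues. In root its level was 401 with PS-NH2 and 603 with PS-SO3H, against 504 and 496 in root control (log2 -0.33 and 0.28, adjusted p = 0.320 and 0.384). In leaf it was 503 with PS-NH2 and 331 with PS-SO3H, against 466 in leaf control in both tables (log2 0.11 and -0.49, adjusted p = 0.918 and 0.186). None of the 4 values passed. CYCD2;1 (AT2G22490), also a G1 cyclin, had its lowest value in leaf with PS-NH2, with 389 against 510 in leaf control (log2 -0.39, adjusted p = 0.152). CYCD5;1 (AT4G37630) had its highest in root with PS-NH2, with 201 against 163 in root control (log2 0.30), and CYCD4;1 (AT5G65420) stayed between -0.11 and 0.09 in all 4 comparisons. Over the 8 D cyclins the median log2 fold change was 0.03 in root with PS-NH2, -0.11 in root with PS-SO3H, 0.00 in leaf with PS-NH2 and -0.22 in leaf with PS-SO3H.

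**Figure D2:**
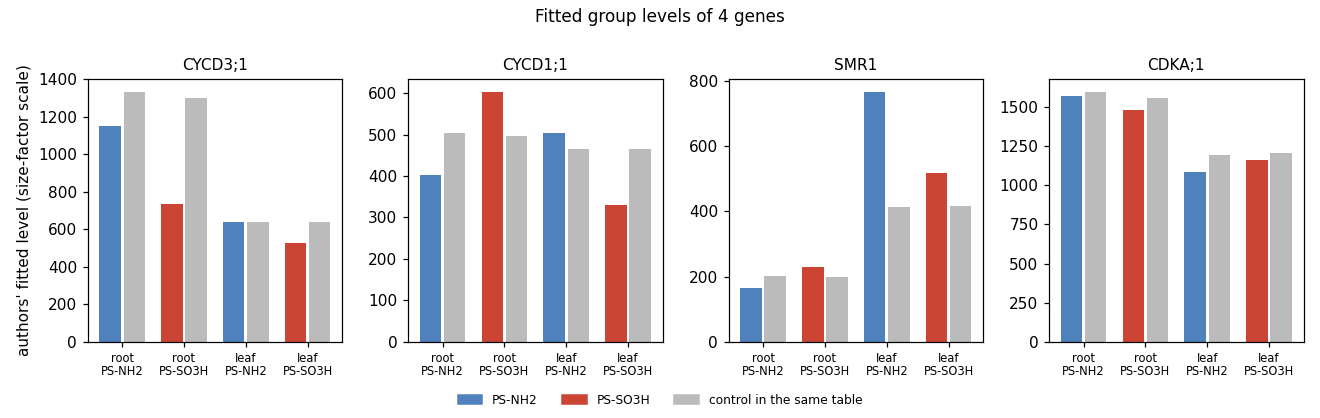
The authors' fitted level (y axis, size-factor scale, linear from 0) of CYCD3;1, CYCD1;1, SMR1 and the CDK gene CDKA;1 with PS-NH2 (blue) and PS-SO3H (red), each beside the control of the same table (grey), in root and leaf. A bar is 1 group of 2 libraries, and the tables give no error of a level. The first panel has 737 against 1298 in root with PS-SO3H, the SMR1 panel has 766 against 413 in leaf with PS-NH2, and the last panel stays close to control in all 4 pairs.

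Downstream of the D cyclins, none of the E2F factors or RBR1 was called. E2FA (AT2G36010) and E2FB (AT5G22220) are activators of S phase genes and E2FC (AT1G47870) is mainly a repressor, while RBR1 (AT3G12280), the retinoblastoma-related protein, restrains them. RBR1 had levels of 1252 with PS-NH2 and 1129 with PS-SO3H in root, against 1221 and 1191 in root control. In leaf it had 671 with PS-NH2 and 774 with PS-SO3H, against 887 and 895 in leaf control. Its lowest fold change was in leaf with PS-NH2 (log2 -0.40, SE 0.15, interval -0.70 to -0.11, adjusted p = 0.0646). E2FA had 226 with PS-NH2 and 190.4 with PS-SO3H in root, against 215 and 209 in control, and 181 with PS-NH2 and 143 with PS-SO3H in leaf, against 147 in control in both tables. E2FB had the highest value of the group in leaf, with 153 against 109 in control with PS-NH2 (log2 0.49) and 147 against 111 in control with PS-SO3H (log2 0.40). In root E2FB had 161 against 151 in control with PS-NH2 and 132 against 146 in control with PS-SO3H. The root values of this group were all within 0.14 of 0 on the log2 scale, and the lowest with PS-NH2 was E2FC at -0.06 (360 against 374 in control).

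The kinases themselves stood near control. CDKA;1 (AT3G48750), the CDK active throughout the cycle, had levels of 1571 with PS-NH2 and 1483 with PS-SO3H in root, against 1598 and 1559 in root control, and 1083 with PS-NH2 and 1160.03 with PS-SO3H in leaf, against 1195 and 1206 in leaf control. Its intervals were the narrowest of all members in root, -0.22 to 0.17 with PS-NH2 and -0.27 to 0.13 with PS-SO3H. The plant-specific B-type kinases, which act at G2 and mitosis, are CDKB1;1 (AT3G54180), CDKB1;2 (AT2G38620), CDKB2;1 (AT1G76540) and CDKB2;2 (AT1G20930). All 4 had values below 0 in both root comparisons, with medians of -0.15 with PS-NH2 and -0.26 with PS-SO3H, and none was called. The lowest was CDKB2;2, with 372 against 426 in root control with PS-NH2 (log2 -0.19) and 328 against 415 with PS-SO3H (log2 -0.34, adjusted p = 0.343). In leaf, CDKB1;1 had the highest value with PS-NH2 (130.3 against 116 in control, log2 0.17), and with PS-SO3H CDKB2;1 had the lowest (378 against 449 in control, log2 -0.25) and CDKB1;2 the highest (94.1 against 96.5, log2 -0.04).

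Among the CDK inhibitors, SMR1 (AT3G10525, also named LGO), a SIAMESE-related protein that in Arabidopsis sends sepal and leaf epidermal cells into the endocycle, rose in leaf with PS-NH2. Its level in root was 166 with PS-NH2 and 229 with PS-SO3H, against 201 and 199 in root control. In leaf it was 766 with PS-NH2 and 517 with PS-SO3H, against 413 and 415 in leaf control. Both leaf values were above control and the PS-NH2 value was the highest of all groups. That rise was 0.89 on the log2 scale (SE 0.18, interval 0.53 to 1.25, adjusted p = 2.76e-05 by the authors' DESeq2 method). The value in leaf with PS-SO3H, 0.32, did not pass (interval -0.06 to 0.69, adjusted p = 0.574), nor did those in root, -0.28 with PS-NH2 (adjusted p = 0.889) and 0.20 with PS-SO3H (adjusted p = 0.988). SIM (AT5G04470), the founding member of that family, which stops division in leaf hairs, was lower than control at an unadjusted p below 0.05 in root with PS-NH2 but was not called (1173 against 1411, log2 -0.27, SE 0.11, adjusted p = 0.200). In root with PS-SO3H it had 1454 against 1381 in control, and in leaf its values were 0.12 with PS-NH2 and 0.10 with PS-SO3H.

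The 7 KRP genes encode inhibitors that bind CDKs with their D cyclins: KRP1 (AT2G23430), KRP2 (AT3G50630), KRP3 (AT5G48820), KRP4 (AT2G32710), KRP5 (AT3G24810), KRP6 (AT3G19150) and KRP7 (AT1G49620). None was called in any table, and 5 of 7 had a value above 0 in each of the 4 comparisons. Their medians were 0.07 in root with PS-NH2, 0.05 in root with PS-SO3H, 0.30 in leaf with PS-NH2 and 0.03 in leaf with PS-SO3H. In leaf, KRP4 had 599 with PS-NH2 against 441 in control (log2 0.44, SE 0.17, adjusted p = 0.0654), and 540.5 with PS-SO3H against 446 (log2 0.28, adjusted p = 0.701). KRP2 had 145 with PS-NH2 against 109 in leaf control (log2 0.42), and 169.6 with PS-SO3H against 111 (log2 0.61, SE 0.26, adjusted p = 0.232). KRP1 had 359 with PS-NH2 against 291 in leaf control (log2 0.30) and 299.98 with PS-SO3H against 293 (log2 0.03). KRP5 had 58.0 with PS-NH2 against 47.1 in leaf control (log2 0.30) and 63.5 with PS-SO3H against 48.6 (log2 0.39). The leaf values of these genes were thus above control in both tables, while KRP6 was below it, with 149.6 against 175 with PS-NH2 (log2 -0.22) and 171 against 177 with PS-SO3H (log2 -0.05). KRP3 and KRP7, with control levels below 50 in leaf, had values between -0.05 and 0.21 there. In root the highest values were KRP2 with PS-NH2 (392 against 335 in control, log2 0.22) and KRP1 with PS-SO3H (172 against 132 in control, log2 0.37). WEE1 (AT1G02970), a kinase that slows the cycle when replication is disturbed, had a value below 0 in all 4 tables, between -0.33 and -0.22, with levels of 119 with PS-NH2 and 114 with PS-SO3H in root against 138 and 135 in control, and 49.7 with PS-NH2 and 53.8 with PS-SO3H in leaf against 62.3 and 62.7 in control. No WEE1 value was called, and its leaf intervals were among the widest, -1.08 to 0.42 with PS-NH2.

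Most replication genes shared a sign within a comparison, and no single gene was called. MCM2 (AT1G44900), MCM3 (AT5G46280), MCM4 (AT2G16440), MCM5 (AT2G07690), MCM6 (AT5G44635) and MCM7 (AT4G02060) are the subunits of the helicase that opens DNA at origins. All 6 had values above 0 in root with PS-NH2 (0.07 to 0.18, median 0.11), and all 6 had values below 0 in root with PS-SO3H (-0.27 to -0.08, median -0.16), in leaf with PS-NH2 (-0.34 to -0.06, median -0.11) and in leaf with PS-SO3H (-0.27 to -0.14, median -0.24). MCM2 had 837 with PS-NH2 and 642 with PS-SO3H in root, against 771 and 749 in control. In leaf MCM2 had 244 with PS-NH2 and 257 with PS-SO3H, against 308 and 310.4 in control. MCM6 had 391 with PS-NH2 and 277 with PS-SO3H in root, against 345 and 334 in control, and 159 with PS-NH2 and 153 with PS-SO3H in leaf, against 168 and 169 in control. MCM5 had 809 with PS-NH2 and 650.2 with PS-SO3H in root, against 747 and 727 in control, and 386 with PS-NH2 and 359 with PS-SO3H in leaf, against 420.02 and 423 in control. The remaining subunits had the same signs. MCM3 had 552 with PS-NH2 and 459 with PS-SO3H in root, against 526 and 512 in control, and 243 with PS-NH2 and 234 with PS-SO3H in leaf, against 275 and 277 in control. MCM4 had 706 with PS-NH2 and 602 with PS-SO3H in root, against 653 and 636 in control, and 340.4 with PS-NH2 and 314 with PS-SO3H in leaf, against 354 and 356 in control. MCM7 had 846 with PS-NH2 and 708 with PS-SO3H in root, against 789.8 and 769 in control, and 459 with PS-NH2 and 419 with PS-SO3H in leaf, against 490.3 and 494 in control. None of the MCM fold changes had an unadjusted p below 0.05. The subunits of 1 complex are known to be expressed together, so 6 equal signs are not 6 separate observations.

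The other replication genes behaved likewise in leaf. PCNA1 (AT1G07370) and PCNA2 (AT2G29570), which encode the sliding clamp of DNA polymerase, had values of -0.02 and -0.05 in root with PS-NH2 and of -0.22 and -0.17 in root with PS-SO3H. In leaf they had -0.11 and -0.19 with PS-NH2 and -0.25 and -0.16 with PS-SO3H. PCNA2 in root had levels of 625 with PS-NH2 and 562 with PS-SO3H, against 649 and 632 in control. CDC6 (AT2G29680), a loader of the helicase at origins, had 107 with PS-NH2 and 112 with PS-SO3H in root, against 106 and 104 in control, and its values in leaf were -0.15 and -0.25. None of the 9 replication genes was called in any table, and the lowest adjusted p was 0.420, of MCM2 in leaf with PS-NH2. The 7 members with an E2F word in the window were also all above 0 in root with PS-NH2 (median 0.12) and all below 0 in root with PS-SO3H (median -0.16), leaf with PS-NH2 (median -0.17) and leaf with PS-SO3H (median -0.21). Of these, 5 are MCM genes. Over all listed genes with such a word, 343 to 348 in a table, the median was between -0.02 and 0.00.

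A cyclins act in S phase and G2. CYCA1;1 (AT1G44110) had the lowest value of this class in root with PS-SO3H, with 254 against 352 in control (log2 -0.47, SE 0.17, interval -0.81 to -0.13, adjusted p = 0.110). With PS-NH2 its root level was 350.4 against 363 in control (log2 -0.05), and in leaf it was 189 against 182 with PS-NH2 and 174 against 183 with PS-SO3H. The A2 cyclins, which in Arabidopsis oppose the endocycle, are CYCA2;1 (AT5G25380), CYCA2;2 (AT5G11300), CYCA2;3 (AT1G15570) and CYCA2;4 (AT1G80370). CYCA2;3 had a value of -0.33 in root with PS-SO3H (305 against 384 in control, adjusted p = 0.412), and CYCA2;2 had the lowest leaf values, -0.37 with PS-NH2 (53.9 against 69.6) and -0.34 with PS-SO3H (55.1 against 69.6). CYCA2;1 was the least expressed member, with levels of 8.10 to 9.06 in leaf, and its interval there was the widest (-1.24 to 1.01 with PS-NH2). In root the highest values of the class were CYCA2;4 with PS-NH2 (325 against 297 in control, log2 0.13) and CYCA2;1 with PS-SO3H (34.0 against 30.4 in control, log2 0.16). CYCA3;1 (AT5G43080) and CYCA3;2 (AT1G47210), the S phase A cyclins, lay between -0.18 and 0.02 throughout. No A cyclin was called.

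B cyclins drive entry into mitosis. In root with PS-SO3H 7 of 8 had a value below 0, with a median of -0.23, and in leaf with PS-SO3H it was again 7 of 8, with a median of -0.19. With PS-NH2 4 of 8 were below 0 in each tissue, with medians of -0.03 in root and 0.01 in leaf. CYCB1;1 (AT4G37490), widely used as a marker of cells in G2 and mitosis, had levels of 216 with PS-NH2 and 163 with PS-SO3H in root, against 213 and 206 in control. In leaf this gene had 93.0 with PS-NH2 and 93.6 with PS-SO3H, against 80.1 and 81.3 in control. Its root value with PS-SO3H was -0.33 (interval -0.74 to 0.07, adjusted p = 0.641), and its leaf values were 0.22 and 0.20. CYCB1;2 (AT5G06150), the gene with 4 MSA words, had 609.6 with PS-NH2 and 468 with PS-SO3H in root, against 591 and 574 in control (log2 0.05 and -0.29, adjusted p = 1 and 0.342).
The other members of the class are CYCB1;3 (AT3G11520), CYCB1;4 (AT2G26760), CYCB2;1 (AT2G17620), CYCB2;2 (AT4G35620), CYCB2;3 (AT1G20610) and CYCB2;4 (AT1G76310). The lowest fold changes were CYCB2;2 in root with PS-NH2 (204 against 264 in control, log2 -0.37, adjusted p = 0.450) and CYCB2;4 in leaf with PS-SO3H (112 against 156 in control, log2 -0.49, adjusted p = 0.458), and in leaf with PS-NH2 CYCB2;2 was lowest at -0.18 (98.6 against 111 in control). The highest were CYCB2;1 with PS-NH2, at 0.29 in root (119.8 against 97.9 in control) and 0.24 in leaf (33.6 against 28.5 in control), and with PS-SO3H CYCB2;3 in root (385 against 364 in control, log2 0.08). CYCB1;3 lay between -0.29 and -0.16 in all 4 comparisons and CYCB1;4 between -0.12 and -0.06. No B cyclin was called.

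KNOLLE (AT1G08560), the syntaxin that fuses vesicles into the new cell plate and is made only around cytokinesis, had levels of 749 with PS-NH2 and 669.6 with PS-SO3H in root, against 801 and 781 in control. In leaf it had 426 with PS-NH2 and 319 with PS-SO3H, against 438 and 439 in control. All 4 treated levels were below control and none was called. The lowest, in leaf with PS-SO3H, was -0.46 on the log2 scale (SE 0.21, interval -0.88 to -0.05, adjusted p = 0.299).

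The particles were then set against each other within a tissue, as the difference of both fold changes (PS-NH2 minus PS-SO3H). Both fold changes of a tissue use the same control libraries, so equal or opposite signs of the particles are not independent of each other, and the summed variances used for the SE are too large. In root, 1 of 52 members passed, beside 3.24% of all genes, and in leaf 0 passed, beside 3.17% of all genes. At an unadjusted p below 0.05 there were 4 members in root (7.69%, beside 9.51% of all genes) and 2 in leaf (3.85%, beside 8.95%), a smaller share than over all genes in both tissues. The root member was CYCD3;1, higher with PS-NH2 than with PS-SO3H by 0.60 on the log2 scale (SE 0.17, interval 0.27 to 0.93, adjusted p = 0.0151 over all genes). In leaf that cyclin differed by 0.27 (interval -0.18 to 0.73).

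CYCD1;1 had differences of opposite sign in the tissues, -0.61 in root (SE 0.20, interval -1.01 to -0.21, adjusted p = 0.0727) and 0.60 in leaf (SE 0.27, interval 0.06 to 1.14, adjusted p = 0.392), and neither passed. CYCD6;1 had the largest difference in root, 0.88 (SE 0.34, interval 0.22 to 1.55, adjusted p = 0.176). SMR1 had 0.58 in leaf (SE 0.26, interval 0.06 to 1.09, adjusted p = 0.401) and -0.48 in root (interval -1.05 to 0.10). An assumed covariance of the shared controls was also taken out. It was not estimated: control and treated libraries were assumed to add equally to the variance of each fold change. Under that assumption CYCD1;1, CYCD3;1, CYCD6;1 and SIM passed in root and CYCD1;1 and SMR1 passed in leaf, beside 9.04% and 8.42% of all genes. The 6 MCM genes were all higher with PS-NH2 in root, by 0.19 to 0.45 (median 0.25), and the lowest adjusted p among them was 0.578. Counting all members, the interval lay within a log2 difference of 1 either way for 45 of 52 in root and 35 of 52 in leaf. Of all genes, 77.2% in root and 61.7% in leaf had such an interval.

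**Figure D3:**
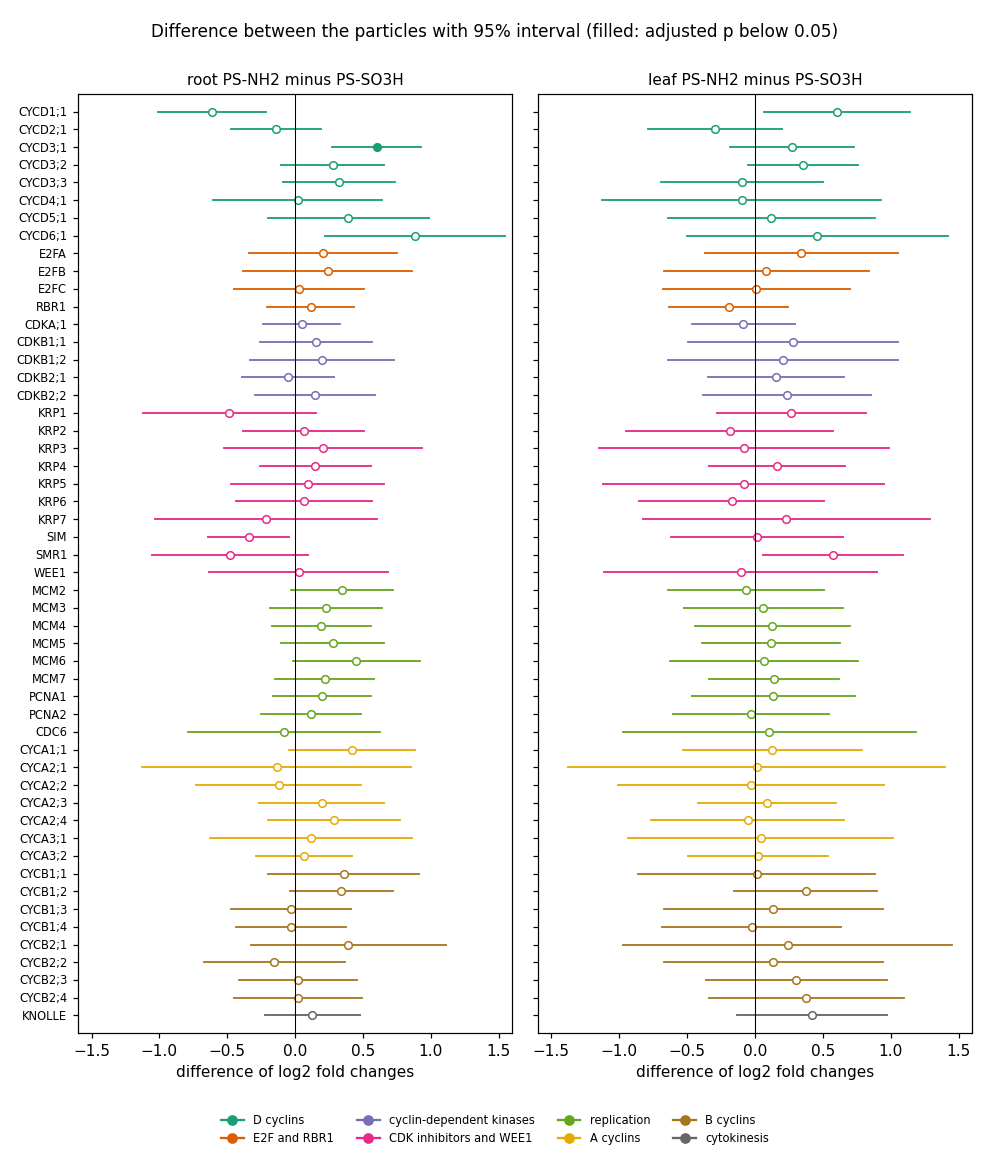
PS-NH2 minus PS-SO3H on the log2 scale (x axis), as the difference of both fold changes, for the 52 genes (rows, coloured by role) in root and leaf, with 95% intervals from summed variances. Filled points passed an adjusted p of 0.05 over all genes. CYCD3;1 in root, at 0.60, is filled, and CYCD1;1 lies at -0.61 in root and 0.60 in leaf.

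The response to 1 particle was also compared between tissues, as root minus leaf. With PS-NH2, 1 of 52 members passed, beside 6.58% of all genes, and with PS-SO3H 0 passed, beside 2.54% of all genes. At an unadjusted p below 0.05 there were 2 members with each particle (3.85%), beside 14.6% of all genes with PS-NH2 and 8.93% with PS-SO3H. The member was SMR1, whose response to PS-NH2 was lower in root than in leaf by 1.17 on the log2 scale (difference -1.17, SE 0.28, interval -1.72 to -0.61, adjusted p = 0.00135). Its fold changes were -0.28 in root and 0.89 in leaf. With PS-SO3H, the lowest adjusted p was that of CYCD1;1, 0.0567, for a difference of 0.78 (SE 0.24, interval 0.30 to 1.25). CYCD3;1, called in root with PS-SO3H, differed from leaf by -0.54 (SE 0.21, interval -0.94 to -0.14), which did not pass (adjusted p = 0.199). That fall was therefore not shown to differ between the tissues.

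Most cycle transcripts had a higher fitted level in untreated root than in untreated leaf, each on the size-factor scale of its own tissue. The root and leaf tables were normalized separately by the authors. These ratios and folds therefore have no common zero and carry no test, and the median of all genes is given beside them. In the controls of the PS-SO3H tables, 47 of 52 members (90.4%) had a higher level in root, beside 68.6% of all genes, with a median log2 ratio of 0.95 (1.93-fold), beside a median of 0.53 over all genes. In the controls of the PS-NH2 tables it was 48 of 52 (92.3%), beside 69.8% of all genes, with a median of 1.00, beside 0.58 over all genes. All 8 B cyclins, 5 CDKs and 9 replication genes were higher in root by either pair of tables. The B cyclins and replication genes also all lay above the median ratio of all genes. Some members counted as higher in root lay below it, among them CDKA;1 (0.37) and RBR1 (0.41) in the PS-SO3H tables. The B cyclins had a median ratio of 1.28 on the log2 scale, beginning with CYCB1;2 (574 in root and 380.1 in leaf, 0.60) and ending with CYCB1;3 (405 and 112, 1.86). CDKB1;1 had a level of 475 in root and 116 in leaf (4.09-fold) and SIM had 1381 in root and 201 in leaf (6.88-fold), the highest ratio of all members.

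A few members were lower in root than in leaf. KRP1 had 132 in root and 293 in leaf, SMR1 had 199 in root and 415 in leaf, and CYCD3;2 had 594 in root and 1237 in leaf. KRP4 was close to equal, with 421 in root and 446 in leaf, and CYCA2;3 turned sign between the pairs of tables (-0.04 and 0.01 on the log2 scale). The D3 cyclins therefore differed in order between the tissues. Divided by gene length, control levels per kilobase were 692 in root and 342 in leaf for CYCD3;1, and 399 in root and 832 in leaf for CYCD3;2. SMR1 stood at 241 per kilobase in root and 502 in leaf. Across all members the level per kilobase in control was highest for SIM in root (1744) and for CYCD3;2 in leaf (832), and lowest for CYCA2;1 in both (18.9 in root and 6.65 in leaf).

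**Figure D4:**
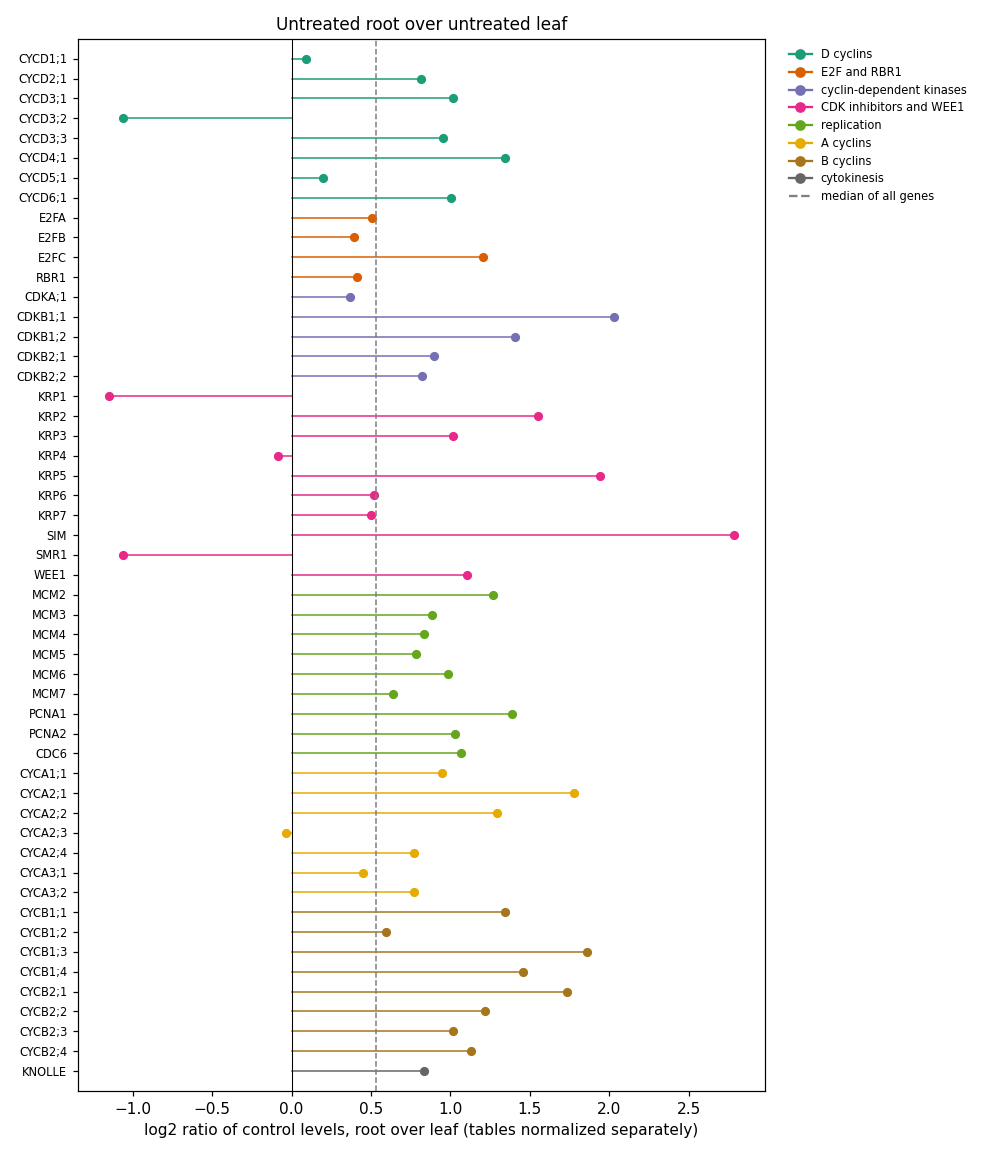
Log2 ratio of the control levels, root over leaf (x axis), for the 52 genes (rows, coloured by role), from the PS-SO3H tables. The dashed line is the median of all genes, 0.53. SIM has the highest ratio at 2.78, and KRP1, SMR1 and CYCD3;2 lie below -1.

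The same pathway was followed beyond the members through 7 lists of related loci chosen by function. With PS-SO3H in leaf no gene of any of these lists was called, beside 4.46% of all genes. With PS-SO3H in root, 2 of 30 other mitosis and cytokinesis genes were called, both lower (6.67%, beside 4.84% of all genes). HIK (AT1G18370), a kinesin that starts the signal for cell plate growth, had 447 against 610 in control (log2 -0.45, SE 0.14, adjusted p = 0.0379). MYB3R4 (AT5G11510), a MYB3R activator of genes with MSA elements, had 437 against 616 in control (log2 -0.49, SE 0.15, adjusted p = 0.0209). Of these 30 genes 28 had a value below 0, with a median of -0.25, and 10 had an unadjusted p below 0.05, all lower (33.3%, beside 11.6% of all genes in either direction). With PS-NH2 in root, 1 of the 30 was called, lower (3.33%, beside 4.32% of all genes): POK2 (AT3G19050), a kinesin that guides the division plane, had 338 against 539 in control (log2 -0.67, SE 0.17, adjusted p = 0.00375). Here 25 of 30 were below 0, with a median of -0.14. At an unadjusted p below 0.05 there were 4, all lower (13.3%, beside 10.8% of all genes in either direction). None of the 30 was called in leaf, where 0 with PS-NH2 and 3 with PS-SO3H had an unadjusted p below 0.05, beside 19.5% and 12.4% of all genes. The share of called mitosis genes was thus above that of all genes in root with PS-SO3H and below it in the other comparisons. In root with PS-SO3H both called genes were lower, and 465 of 23818 genes were called lower there. Genes of this list share regulators, so these shares are descriptions.

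Of 29 replication genes outside the members, 2 were called in leaf with PS-NH2, both lower, a smaller share (6.90%) than that of all genes called there (11.2%). In the other 3 comparisons 0 of 29 were called, beside 4.32% to 4.84% of all genes. POL2A (AT1G08260), the catalytic subunit of DNA polymerase epsilon, had 201 against 358 in control (log2 -0.83, SE 0.23, adjusted p = 0.00527). ICU2 (AT5G67100), the catalytic subunit of DNA polymerase alpha, had 233 against 355 in control (log2 -0.61, SE 0.22, adjusted p = 0.0448). The median of the 29 was 0.08 in root with PS-NH2, -0.05 in root with PS-SO3H, -0.11 in leaf with PS-NH2 and -0.13 in leaf with PS-SO3H. Of 13 histone genes expressed in S phase none was called. In leaf with PS-NH2 12 of the 13 had a value above 0, with a median of 0.16, while 50.4% of all genes were below 0. Shared transcript stretches were not checked for these histone genes, so their equal signs are not taken as separate observations. Other cyclins and CDKs, endocycle and G1 control genes, and DNA damage response genes gave 0 calls in all 4 tables, beside 4.32% to 11.2% of all genes. At an unadjusted p below 0.05, these 3 lists held 0 genes with PS-NH2, beside 10.8% of all genes in root and 19.5% in leaf. With PS-SO3H they held 2 endocycle and G1 genes in root (11.1%, beside 11.6% of all genes). In leaf with PS-SO3H they held 1 DNA damage gene (9.09%, beside 12.4% of all genes). These shares were near or below those of all genes.

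Among regulators of meristems and growth, ANT (AT4G37750), which prolongs the growth of developing organs, fell in root with PS-SO3H, with 555 against 827 in control (log2 -0.57, SE 0.15, adjusted p = 0.00296). KNAT1 (AT4G08150), a homeobox gene of the shoot meristem, fell there too, with 294 against 435 in control (log2 -0.57, adjusted p = 0.0194). In leaf with PS-NH2, TCP4 (AT3G15030), a factor that ends division in leaves, rose to 1411 against 900.2 in control (log2 0.65, adjusted p = 0.00482). ARGOS (AT3G59900), an auxin-induced gene that extends organ growth, fell there, with 41.2 against 114 in control (log2 -1.46, adjusted p = 0.000543). These were 2 of 15 listed genes in root with PS-SO3H (13.3%, beside 4.84% of all genes) and 2 of 16 in leaf with PS-NH2 (12.5%, beside 11.2%). In root with PS-NH2 none of 15 was called, and the values of the list went from -0.96 to 0.75. At an unadjusted p below 0.05 there were 5, with 4 higher and 1 lower (33.3%, beside 10.8% of all genes). The root meristem factor PLT2 (AT1G51190) had 213 against 136 in control (log2 0.65, adjusted p = 0.0534).

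**Figure D5:**
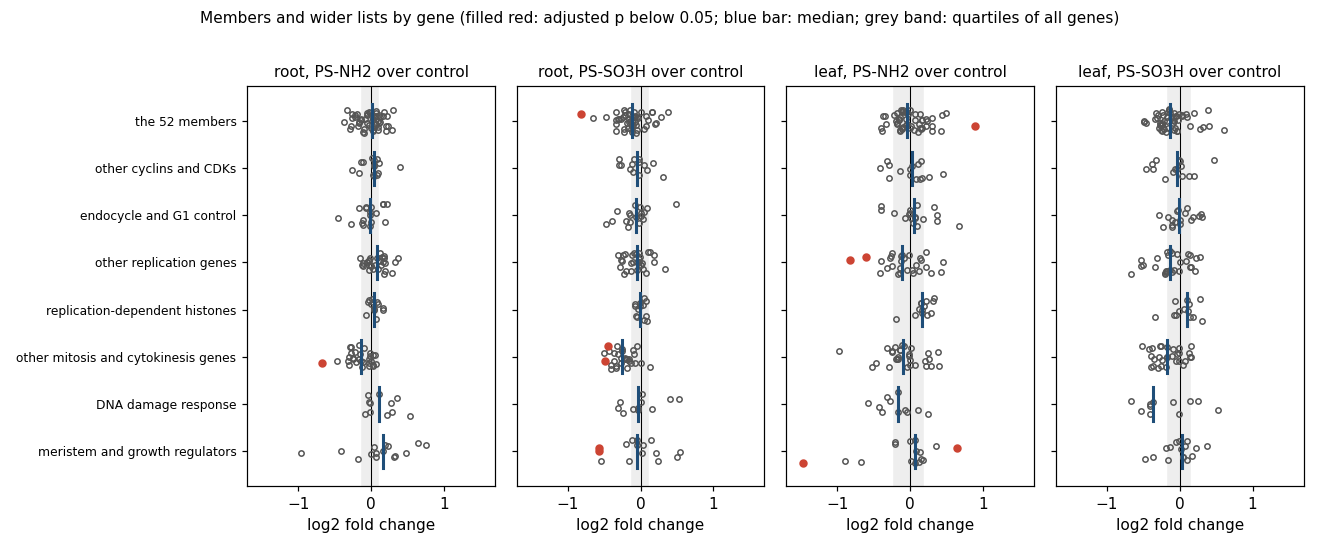
Log2 fold change of treated over control (x axis) for the 52 members and for 7 related gene lists (rows, 1 point a gene) in root with PS-NH2, root with PS-SO3H, leaf with PS-NH2 and leaf with PS-SO3H. Red points passed the authors' adjusted p of 0.05, blue bars are medians and the grey band spans the quartiles of all genes. The mitosis list lies mostly below 0 in root, with medians of -0.14 with PS-NH2 and -0.25 with PS-SO3H.

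Some tissue markers differed from control as well. Of all genes, 4.32% were called in root with PS-NH2 and 4.84% in root with PS-SO3H, in either direction. In leaf it was 11.2% with PS-NH2 and 4.46% with PS-SO3H. In each comparison 50.1% to 50.8% of all genes had a fold change below 0. One gene, PYK10, made up most of the summed level of the root list in every group, so the sum is also given without it. In root with PS-SO3H, all 7 root markers had a fold change above 0, and 3 were called higher: PYK10, and the root hair genes EXPA7 and COBL9 (log2 0.32, 0.59 and 0.72). The summed level was 407598 against 325324 in control, and without PYK10 it was 11095 against 7423 in control. All 10 green tissue markers were below 0 there, with a summed level of 9840.3 against 11739.9 in control, and 4 were called lower. In root with PS-NH2, 1 of 7 root markers was above 0, none was called, and the summed level was 316666 against 332206 in control (5697 against 7110 without PYK10). Of the 10 green markers 6 were above 0 there (13618 against 12073 in control), with 2 called higher and 2 lower. In leaf, 4 of 10 green markers were above 0 with each particle, with summed levels of 1177080 with PS-NH2 against 1169780 in control and 1188620 with PS-SO3H against 1180710 in control. Without RBCS1A, the most abundant of them, the sums were 718436 with PS-NH2 against 780961 in control and 745480 with PS-SO3H against 787981 in control. With PS-NH2, 4 were called lower and 1 higher, and with PS-SO3H none was called. Summed root marker levels in leaf were 12599 with PS-NH2 against 13535 in control, and 16318 with PS-SO3H against 13699.9 in control, nearly all of it PYK10. Without that gene they were 58.9 with PS-NH2 against 78.8 in control and 83.0 with PS-SO3H against 84.1 in control, and no root marker was called in leaf. No marker was at 0 in any group. The part of these shifts in the values of SMR1, the D3 cyclin and the mitosis genes was not tested.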

How the data were processed

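The members and the gene lists were chosen with earlier results of these data known. RNA from root and leaf was reverse transcribed with random primers and sequenced at the Beijing Genomics Institute, per the labels' protocols. TAIR10 is the build given in the submitters' processing notes. SOAP2 is the aligner in the series text, whose protocol is that of a small RNA library, and whether its steps made these tables is unclear. The counting program is not given in the sources used here. A DESeq2 method made the 4 tables, per the labels of the deposited files. A group's level is a deposited signal that the authors fitted as reads over size factors, with no value per library. The deposited log2 fold changes set treated over control and equalled the log2 ratio of the levels within 4.87e-08. Each deposited p-value, raw or adjusted, is the authors'. The deposited gene length differs between tables for many members, and levels per kilobase rest on the length in the PS-SO3H table of the same tissue.

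Values were read with Python 3.11.15, pandas 2.3.3, numpy 2.4.6 and scipy 1.17.1. The SE of a log2 fold change was recovered from the authors' 2-sided p-value as its absolute value over the matching normal quantile, and 95% intervals rest on that SE. Differences of 2 fold changes had their variances summed and a normal p (2-sided), adjusted by Benjamini-Hochberg over all genes in both tables. The procedure was run on simulated particle differences for genes with a mean level of at least 50. The simulated errors were independent and normal, and the planted log2 differences were 2 in size. Shared controls, smaller differences and root minus leaf were not simulated, so the simulation gives no support for those. No filter on low levels and no pseudocount were used; the lowest mean level of a member was 8.48. Precision is set by 2 libraries a group, and depth per library is unknown. Genes were named by a rule: each member at least once, both levels for called members and for the highest and lowest of each role, and up to 4 called genes of each other list; RBR1, E2FA and PLT2 among others were also given values after these were seen. No member shared a stretch of 50 bases with another member in the longest annotated transcript of each. Genes outside the members were not compared, so reads shared with other genes were not excluded.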

Additional observations from a re-analysis of the deposited data

Results flagged for a closer look

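Results stood out by 1 criterion, a tested difference between the responses of different groups. CYCD3;1 in root differed between the particles (PS-NH2 minus PS-SO3H) by 0.60 on the log2 scale, with fold changes of -0.22 with PS-NH2 and -0.82 with PS-SO3H and an adjusted p of 0.0151 for the difference. SMR1 differed between the tissues in its response to PS-NH2 (root minus leaf) by -1.17, with fold changes of -0.28 in root and 0.89 in leaf and an adjusted p of 0.00135 for the difference.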

How the results depend on the processing

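No paired analysis was possible because the tables give 1 fitted value per group and none per library, and for the same reason no library could be left out in turn. A limit of 1 or more on the size of the log2 fold change was also set, besides an adjusted p below 0.05. It was set as well besides an adjusted p of at most 0.001, as the series text states. Either way 0 members were left in root with PS-SO3H, against 1 without that limit, and 0 in leaf with PS-NH2, against 1. CYCD3;1 (-0.82) and SMR1 (0.89) lie inside that limit, which was set on fold changes read as pulled toward 0. The share of all genes at these limits was not counted, so these counts are no result about the members. The covariance of the shared control libraries could not be estimated without values per library. It was set by assuming that control and treated libraries add equally to each variance. With that assumed covariance taken out, the particle difference was called for 4 members in root, against 1, and for 2 in leaf, against 0. More of all genes were called too (9.04% and 8.42%). In root the adjusted p was then 1.8e-05 for CYCD3;1, 0.00059 for CYCD1;1, 0.00439 for CYCD6;1 and 0.0204 for SIM, and in leaf 0.0266 for CYCD1;1 and 0.0279 for SMR1. Re-centring on the median gene and a level minimum of 10 changed no count of members called and no sign of a median. A pseudocount of 1, tried on the medians, changed no sign. With 2 libraries a group, the median SE of a member's fold change was 0.161 with PS-NH2 and 0.165 with PS-SO3H in root, and 0.243 with PS-NH2 and 0.237 with PS-SO3H in leaf, which sets what these tables can resolve.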
